A study of Apis mellifera with 2 samples.

Results

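The miR-92 family was followed through its 2 members in the count table, miR-92a and miR-92b (ame-miR-92a and ame-miR-92b), in small RNA from queen and worker larvae of the honey bee. They were taken by name from 692 listed entries, of which 53 carry honey bee miRNA names and 639 are numbered predictions. The predicted entry that happens to bear the number 92 is not a member. The queen group was larvae of the Italian honey bee, Apis mellifera ligustica, of the royal jelly breed Zhenongda No.1. In each colony 150 of them were moved into queen cups 66 h after egg laying, when less than 18 h had passed since hatching. Egg laying took 24 h in both groups. The worker group was larvae of the same 3 colonies and breed, reared as workers. Larvae of both castes were sampled on days 4, 5 and 6, or 73 to 90 h, then 97 to 114 h, then 121 to 138 h from hatching, with 40 to 60 larvae per colony. RNA of the 3 days was mixed into 1 library for each caste. Values in queens and in workers below are those of the library of that caste's larvae.

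MicroRNAs guide Argonaute proteins to messenger RNAs, chiefly by pairing of the seed near the 5' end, and lower the output of their targets. The miR-92 family belongs to a seed family conserved from flies to mammals. In Drosophila, miR-92a lies within the gene jigr1. Both miR-92a and miR-92b act in neuroblasts, the stem cells of the nervous system, where repression of jigr1 maintains self-renewal. Drosophila miR-92b forms a feedback loop in muscle with Mef2, a transcription factor of muscle differentiation. These roles are known from Drosophila and were not measured here.

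There was 1 library for each caste, so no test and no p-value is given, and variation between colonies was not measured. Listed counts summed to 2658259 in queens and 2318675 in workers. Levels are in CPM, the counts of a miRNA per 1000000 listed counts of its library, where a single count is 0.376 CPM in queens and 0.431 CPM in workers. All intervals are exact 95% intervals. They cover counting error only and may be too narrow, since the protocols name no molecular identifiers and PCR copies of one molecule are not independent. Some sequences ligate and amplify better than others, so a ratio of counts between miR-92a and miR-92b within a library is not a molar ratio. A ratio between the castes compares the same sequence in both. Whole larvae hold many tissues, and fewer cells of a type cannot be told apart from less RNA per cell. The sources used here do not say how reads fitting both relatives, or the further relative miR-92c, were assigned, nor whether the counts of miR-92b come from 1 precursor or several. The split between miR-92a and miR-92b is therefore uncertain. Their sum does not depend on moving reads between these 2, but any reads of miR-92c counted under either name would be part of it.

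The first comparison set the paralogues side by side within each caste. In the queen library miR-92a had 586 counts, or 220 CPM (203 to 239), and miR-92b had 1960 counts, or 737 CPM (705 to 771). In the worker library miR-92a had 648 counts, or 279 CPM (258 to 302), and miR-92b had 6444 counts, or 2779 CPM (2712 to 2848). miR-92b was thus the more counted paralogue in both libraries. It had 3.34 counts for each count of miR-92a in queens (3.05 to 3.67) and 9.94 in workers (9.17 to 10.8). Expressed as a split, miR-92a made up 23.0% of the pair's counts in queens (21.4 to 24.7) and 9.14% in workers (8.48 to 9.83). The 2 intervals did not overlap.

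**Figure D1:**
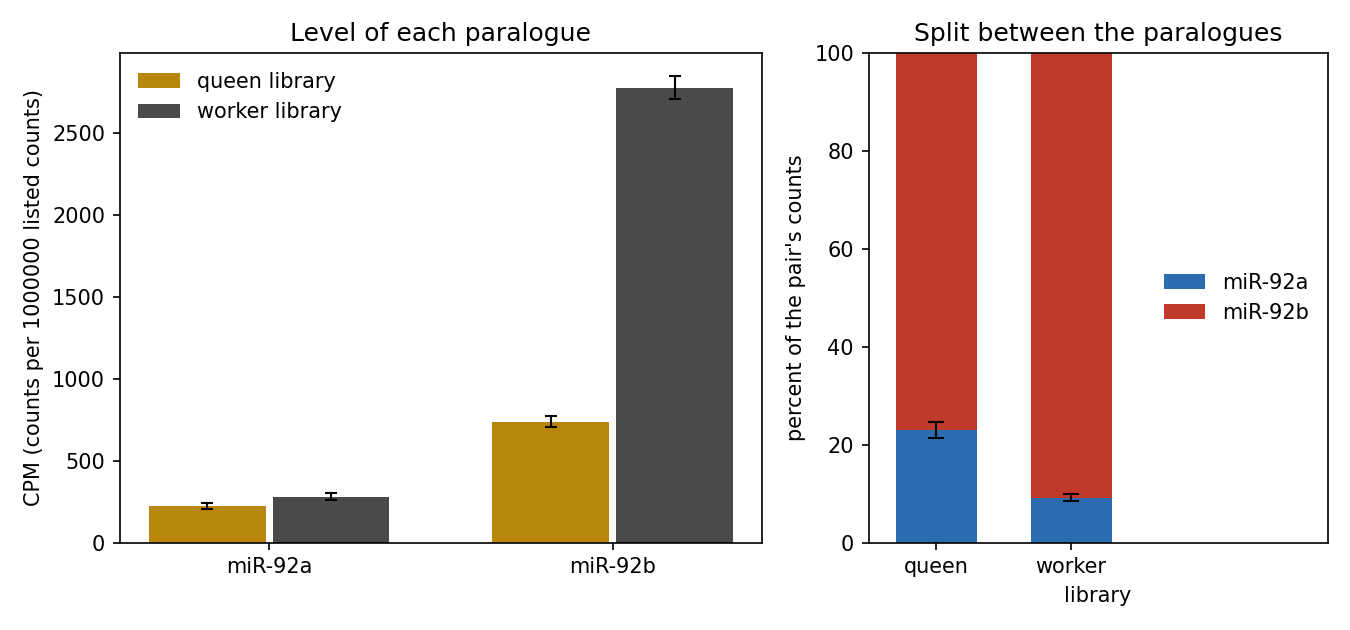
Left, the level of miR-92a and miR-92b in CPM, with a bar for the queen and the worker library and whiskers for the 95% counting interval. Right, the percent of the pair's counts taken by miR-92a and miR-92b in each library, with miR-92a at 23.0% in queens and 9.14% in workers.

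Both members were of middle to low abundance. Among the 53 named miRNAs, miR-92b stood at rank 26 by counts in queens and at rank 21 in workers. miR-92a stood at rank 33 in queens and at rank 35 in workers. The neighbours of miR-92b in this order were miR-33 and miR-252 in queens, with 2160 and 1958 counts, and miR-279 and miR-375 in workers, with 6457 and 5784 counts. miR-252 differed from miR-92b by less than counting error in queens. The neighbours of miR-92a were miR-125 and miR-10 in queens, with 705 and 564 counts, and miR-315 and miR-278 in workers, with 687 and 492 counts. Together the pair took 0.0958% of the listed counts of the queen library and 0.306% of those of the worker library.

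The second comparison took each paralogue between the castes. miR-92b was lower in queens, at 737 CPM against 2779 CPM in workers. Its ratio of queen over worker was 0.265 (0.252 to 0.279), a log2 ratio of −1.91 (−1.99 to −1.84), which corresponds to a level 3.77-fold higher in workers (3.58 to 3.97). miR-92a differed far less, at 220 CPM in queens and 279 CPM in workers. Its ratio of queen over worker was 0.789 (0.704 to 0.883), a log2 ratio of −0.34 (−0.51 to −0.18), and this direction turned with 3 of the 4 other scalings of the libraries. The sum of the paralogues, 2546 counts in queens and 7092 in workers, had a log2 ratio of −1.68 (−1.74 to −1.61).

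A miRNA was called higher in a caste when its ratio was at least 2-fold with an interval that excluded 1. Entries needed 20 counts or more in all to be assessed. By this rule miR-92b was called higher in workers and miR-92a was not called. As a background, 24.5% of the 49 named miRNAs assessed were called higher in workers and 2.04% higher in queens. With 2 members, 1 call is not a result about the family. Over all 136 assessed entries, predictions included, 28.7% were called higher in workers and 11.0% in queens.

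The difference between the paralogues does not depend on how the libraries are scaled. The log2 ratio of miR-92a minus that of miR-92b was 1.57 (1.39 to 1.75), so the caste ratios of the paralogues differed 2.97-fold (2.62 to 3.37). Had the pair's 7092 worker counts been split as in queens, miR-92a would have held 1632 counts there, against 648 listed. The gap of 984 counts equals 15.3% of the worker counts listed as miR-92b. The part of read assignment in this difference was not tested.

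**Figure D2:**
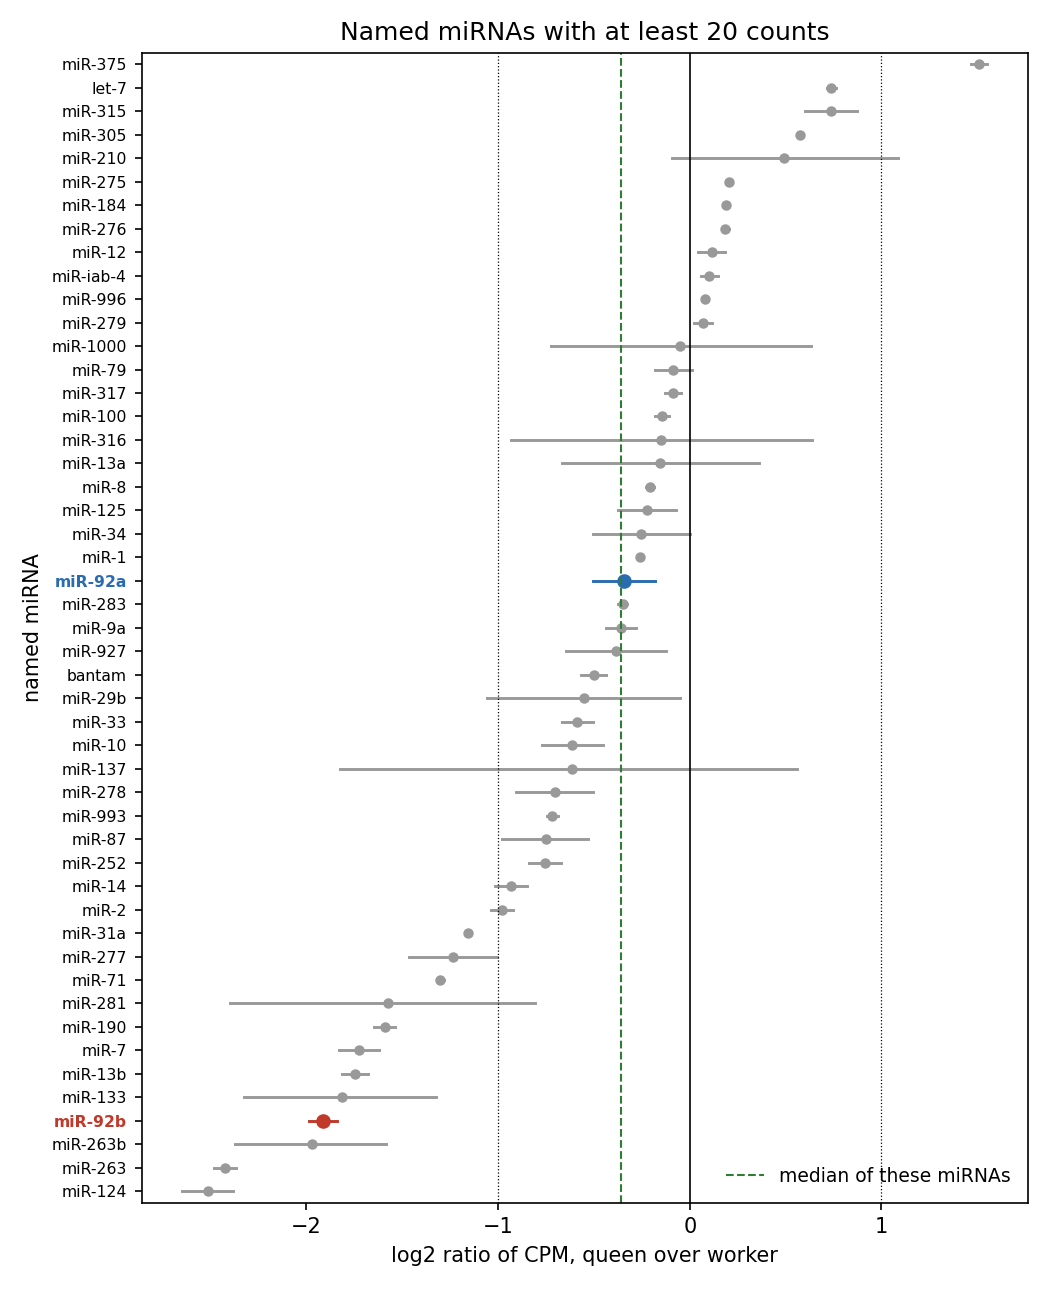
Log2 ratio of CPM, queen over worker, for the 49 named miRNAs with at least 20 counts, ordered from highest to lowest, with lines for the 95% counting interval and dotted lines at 2-fold. miR-92a lies at the dashed median of −0.36, and miR-92b at −1.91 is the fourth from the bottom.

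Within the 49 named miRNAs assessed, the paralogues stood far apart. miR-92b had the fourth lowest log2 ratio of queen over worker, with 3 named miRNAs below it. miR-92a lay in the middle of the order, with 26 named miRNAs below it and 22 above. Between the paralogues lay 22 named miRNAs. The median log2 ratio of the 49 was −0.36, so miR-92a differed from the median by 0.017 and miR-92b by −1.56, and neither of these differences depends on the scaling. Of the 49, 37 had a ratio below 1 and 12 above with scaling to the listed totals. This tally depends on the scaling, and was 23 below and 26 above with the TMM factors (trimmed mean of M values) of edgeR and with the median of ratios of DESeq2, and 22 below and 27 above without the 5 most abundant entries.

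**Figure D3:**
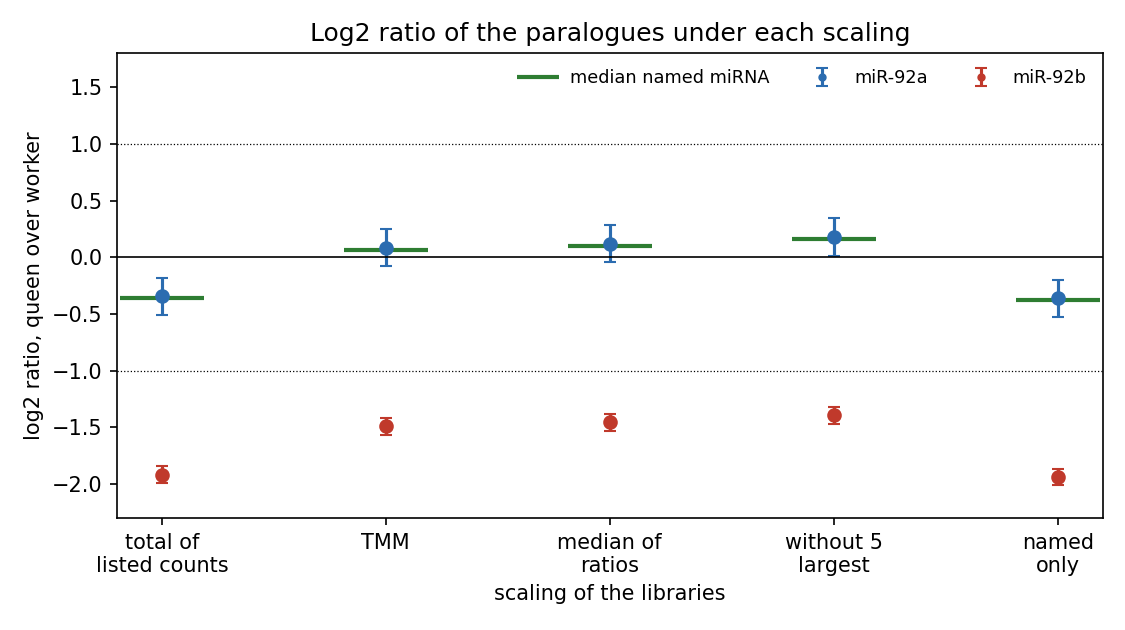
Log2 ratio of queen over worker for miR-92a and miR-92b under 5 scalings of the libraries, with 95% counting intervals, dotted lines at 2-fold and green bars for the median of the 49 named miRNAs. miR-92b stays below −1 under every scaling shown, while miR-92a moves with the median from one side of 0 to the other.

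The 4 other scalings moved all log2 ratios together. TMM factors shifted them by 0.43, median of ratios by 0.46, totals without the 5 most abundant entries by 0.52 and totals of named miRNAs alone by −0.021. The log2 ratio of miR-92b was then −1.49, −1.45, −1.39 and −1.94, and it was called higher in workers under each of them. That of miR-92a was 0.084, 0.12, 0.18 and −0.36. Its interval spanned 0 with TMM factors (−0.080 to 0.25) and with median of ratios (−0.046 to 0.28), and lay just above 0 without the 5 most abundant entries (0.015 to 0.34). A direction for miR-92a between the castes is therefore not given by these libraries. The background of named miRNAs called higher in workers was 18.4% with the first 3 of these scalings and 26.5% with totals of named miRNAs. That of named miRNAs called higher in queens was 8.16%, 8.16%, 10.2% and 2.04%.

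The named miRNAs with the caste ratio nearest to that of each paralogue were taken from 44 others with at least 100 counts, over the 2 libraries. For miR-92a these were miR-283 at a log2 ratio of −0.35, miR-9a at −0.36 and miR-927 at −0.39. In Drosophila, miR-9a guards the precision of sensory organ precursors. The difference of miR-92a from each spanned 0, with intervals of −0.16 to 0.17, −0.17 to 0.20 and −0.27 to 0.35. For miR-92b they were miR-263b at −1.97, miR-133 at −1.81 and miR-13b at −1.75. The interval of the difference of miR-92b from miR-263b ran from −0.34 to 0.47 and from miR-133 from −0.60 to 0.42. That from miR-13b, −0.27 to −0.069, excluded 0. miR-263b had 71 counts in queens and 243 in workers, and miR-133 had 46 and 141 counts in the queen and worker libraries, so their ratios are known only coarsely. miR-13b, with 2455 queen and 7181 worker counts, was known about as closely as miR-92b.

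Because miR-92 is known from nervous system and muscle in Drosophila, the paralogues were set beside miRNAs of these tissues. Of the nervous-system list of 5, 3 were assessed and 2 of them were called higher in workers, beside 24.5% of the 49 named miRNAs assessed. Their median log2 ratio was −1.73, which is the value of miR-7 alone, against −0.36 over the 49. With 3 members assessed, the list is too short to read against that share. The list also leaves out miR-9a, named above for sensory organ precursors, which had a log2 ratio of −0.36 and was not called. miR-124, a miRNA of differentiated neurons, had 550 counts in queens and 2743 in workers, a log2 ratio of −2.52 (−2.65 to −2.38). miR-92b lay above it by 0.60 (0.45 to 0.75) and miR-92a by 2.17 (1.96 to 2.39). miR-7, which acts in Drosophila sensory organ and photoreceptor development, had 996 counts in queens and 2873 in workers, a log2 ratio of −1.73 (−1.83 to −1.62). miR-92b lay below miR-7 by −0.19 (−0.32 to −0.060), and miR-92a lay above it by 1.38 (1.19 to 1.58). The log2 ratio of miR-92b was thus between those of miR-124 and miR-7, and that of miR-92a was above both. miR-137 rested on 12 counts in queens and 16 in workers, at −0.61 (−1.82 to 0.56), and miR-932 and miR-219 were under 20 counts.

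Of the muscle list, miR-133 was called higher in workers and miR-1 was not, which makes 1 of 2 listed members, beside the same 24.5%. Their median log2 ratio was −1.04, against −0.36 over the 49, and 2 members are too few to read against that share. miR-1, the abundant miRNA of differentiated muscle, had a log2 ratio of −0.26 (−0.27 to −0.26), a direction that turned with 3 of the 4 other scalings. miR-92a differed from miR-1 by −0.080 (−0.24 to 0.083), an interval that spans 0. miR-92b lay below miR-1 by −1.65 (−1.73 to −1.58), and differed from miR-133 by −0.10 (−0.60 to 0.42). The 2 listed muscle miRNAs thus stood at different distances from miR-92b, and miR-133 rested on only 46 counts in queens and 141 in workers. The part that amounts of nervous and muscle tissue had in the ratio of miR-92b was not tested.

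**Figure D4:**
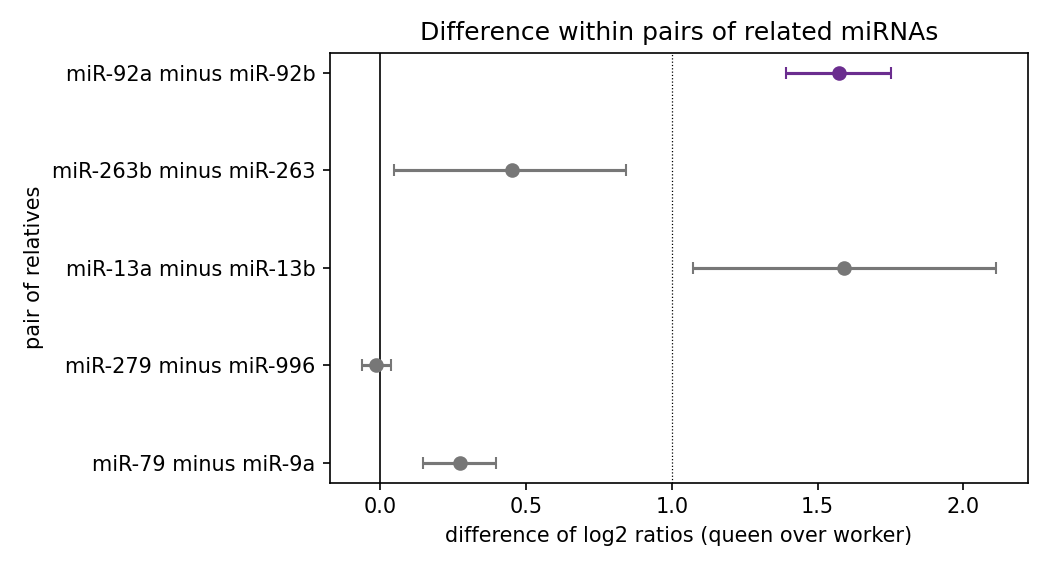
Difference of log2 ratios (queen over worker) within 5 pairs of miRNAs related by name or family, first minus second, with 95% counting intervals and a dotted line at 2-fold. The miR-92 pair at 1.57 and the miR-13 pair at 1.59 lie beyond 1, and the other 3 pairs lie between −0.014 and 0.45.

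Other pairs, related by name or family, were set beside the miR-92 pair. Whether their members share a seed, or are clustered in the genome, was not examined, so they may not be like the miR-92 pair. The difference of log2 ratios was 1.59 (1.07 to 2.11) for miR-13a minus miR-13b, close to the 1.57 of the miR-92 pair. It was 0.45 (0.046 to 0.84) for miR-263b minus miR-263, 0.27 (0.15 to 0.40) for miR-79 minus miR-9a and −0.014 (−0.063 to 0.036) for miR-279 minus miR-996. The interval of the miR-92 pair, 1.39 to 1.75, overlapped that of the miR-13 pair alone. In both pairs the b form was the more counted one and was called higher in workers, while the a form was not called. The a form took 2.66% of the counts of the miR-13 pair in queens and 0.897% in workers, against 23.0% and 9.14% for miR-92a in the queen and worker libraries. miR-13a had 67 counts in queens and 65 in workers, so the gap of the miR-13 pair is the less precise one. These pairs share both libraries and were chosen with earlier results known, so the comparison is a description of these 5 pairs.

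The RefSeq annotation of assembly Amel_HAv3.1 has 3 genes with miR-92 names, Mir92a, Mir92b-1 and Mir92c. Mir92a and Mir92c are neighbours with 0 genes between them. Mir92b-1 lies on another linkage group, inside the span of 1 other gene, so Mir92a and Mir92b-1 are not clustered in this annotation. Strand was not used here, so the spanning gene is not called a host gene. Mir92c and the mature sequences were not analysed here, so the part of miR-92c reads in either member's counts was not tested.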

How the data were processed

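Small RNA of 18 to 30 nt was gel-purified from pooled larval RNA, ligated to adapters, amplified and sequenced on the Solexa platform, per the labels' protocols. The authors deposited 1 table of raw counts, whole numbers with 1 row per miRNA and 1 column per caste, beside 242 empty columns that were not used. For aligner, miRNA caller, build and annotation: not given in the sources used here.

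Ratios were of CPM, queen over worker, with exact conditional (Clopper-Pearson) intervals. Differences between miRNAs used the exact conditional odds ratio of the 4 counts. For calls across entries a count of 0 was replaced by 3 counts. RefSeq names served for neighbours, and no coordinates are printed. The calling and odds-ratio steps were checked on simulated counts with counting error only. Variation between libraries and PCR copies were not simulated, so the check does not cover them. The members, pairs, lists and named miRNAs (members, pairs and lists, 3 nearest ratios with at least 100 counts, next in counts) were chosen with earlier results of these data known. Scaling factors, and no tests, came from edgeR 4.0.16 and DESeq2 1.42.0 in R 4.3.3. Intervals came from scipy 1.17.1 under Python 3.11.15.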

Additional observations from a re-analysis of the deposited data

How the results depend on the processing

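The log2 ratios of miR-92b, of miR-92a and of their sum moved outside their counting intervals with 3 of the 4 other scalings. With totals of named miRNAs alone they stayed inside, at −1.94, −0.36 and −1.70. They were −1.49, 0.084 and −1.25 with TMM factors, −1.45, 0.12 and −1.21 with median of ratios, and −1.39, 0.18 and −1.15 without the 5 most abundant entries. At 2-fold, miR-92b (−1.91) and the sum (−1.68) were both called higher in workers, and at 4-fold neither was called. The difference between the paralogues (1.57) was past 2-fold with an interval that excluded 0, but was not past 4-fold. A threshold of 1.5-fold or a 99% interval changed none of these 3. The background counts moved too. Calls toward queens among named miRNAs numbered 1, against 4, 4 and 5 with the 3 scalings that moved the ratios. They numbered 3 at 1.5-fold and 0 at 4-fold. Calls toward workers numbered 12, against 20 at 1.5-fold and 2 at 4-fold. Over all entries, calls toward queens numbered 15 of 136 assessed, against 23 without a minimum and 6 at a minimum of 100. They numbered 6 where both libraries had counts, an alternative chosen after seeing the data. Calls toward workers numbered 39 of 136, against 58 without a minimum, 25 at a minimum of 100, 33 where both libraries had counts and 16 at 4-fold. Settings with another minimum, or with counts in both libraries, assess other numbers of entries, so their counts are not shares of the 136. A scaling shifts all log2 ratios alike, and the other settings change the threshold or the entries assessed. No paired analysis was possible because there was a single library of queens and of workers, so none could be left out either. Depth limits miR-92a, with 586 and 648 counts in queens and workers, more than miR-92b.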
